A study of Mus musculus with 40 samples.

Results

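Mammary glands of mice on day 13 of pregnancy (p13) with an Ezh2 knockout (KO) were compared with control glands of the same day. The comparison covered every gene with at least 1 FPKM in either group, which kept 13464 of the 22552 genes in the deposited table. FPKM is a level in fragments, scaled to transcript length and to library size. At the edge of that rule, 4930404H21Rik (0.518 FPKM in Ezh2 KO and 1.00 in control) was kept, and Pcdhb7 (0.999 FPKM in Ezh2 KO and 0.778 in control) was not. A gene that reached 1 FPKM in 1 group alone could only be higher in that group. The Ezh2 KO mice carried floxed Ezh2 alleles and the MMTV-Cre transgene. The control mice are labelled with MMTV-Cre alone. Both groups were untreated mice of an outbred background, and poly(A) RNA was taken from whole mammary tissue. Their age is not given in the labels, whereas the virgin mice used for comparison further below were 12 weeks old. MMTV-Cre, here transgenic line A per the labels, is known mainly from recombination in mammary epithelium, so fat, vessels and other cells of the tissue may keep Ezh2.

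Each group had 3 libraries, and the table gives 1 value per group. No difference below therefore has a replicate check, an SD or a p-value. The other p13 groups were an Ezh2 KO with a single Ezh1 allele (Ezh1 het Ezh2 KO) and an Ezh1 KO, with 3 libraries each. They serve below to place the values.

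EZH2 is a catalytic subunit of Polycomb repressive complex 2 (PRC2), which methylates histone H3 on lysine K27, a mark of silenced developmental genes, and EZH1 is its alternative. During pregnancy, prolactin and placental lactogens act through the prolactin receptor, the kinase JAK2 and the transcription factor STAT5 on luminal epithelial cells. These cells multiply, form alveoli and switch on milk genes, with the caseins ahead of the whey proteins. Whole gland also holds myoepithelial cells, adipocytes, fibroblasts, vessels, nerves and immune cells, and it lies against skin and body wall muscle.

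The milk protein genes stood far higher in Ezh2 KO glands than in control glands, as did a set of interferon-induced genes. White adipocyte, collagen, nerve, mast cell, red cell and muscle genes stood lower. Over all genes kept, 378 (2.81%) were higher in Ezh2 KO by at least 1 log2 unit and 940 (6.98%) were lower by that much, while 12146 lay between. Differences are log2(FPKM + 1) of Ezh2 KO minus control, on which low genes differ by less than their ratio would give, and folds are plain ratios of FPKM. The median over all genes was 0.02, and the middle of the distribution ran from -0.30 to 0.24 at its quartiles. Of these differences 7004 were positive and 6460 negative. At a threshold of 2 log2 units 88 genes were higher and 220 lower. Scaling both groups to a common sum of FPKM moved the median of all genes to -0.09, with 319 genes higher and 1097 lower. Scaling them to the same geometric mean of 17 luminal epithelial markers moved it to -0.44, with 189 higher and 1987 lower. These 2 scalings are called the common sum and the luminal scale below. In whole tissue, fewer cells of a type and less RNA per cell cannot be told apart.

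**Figure D1:**
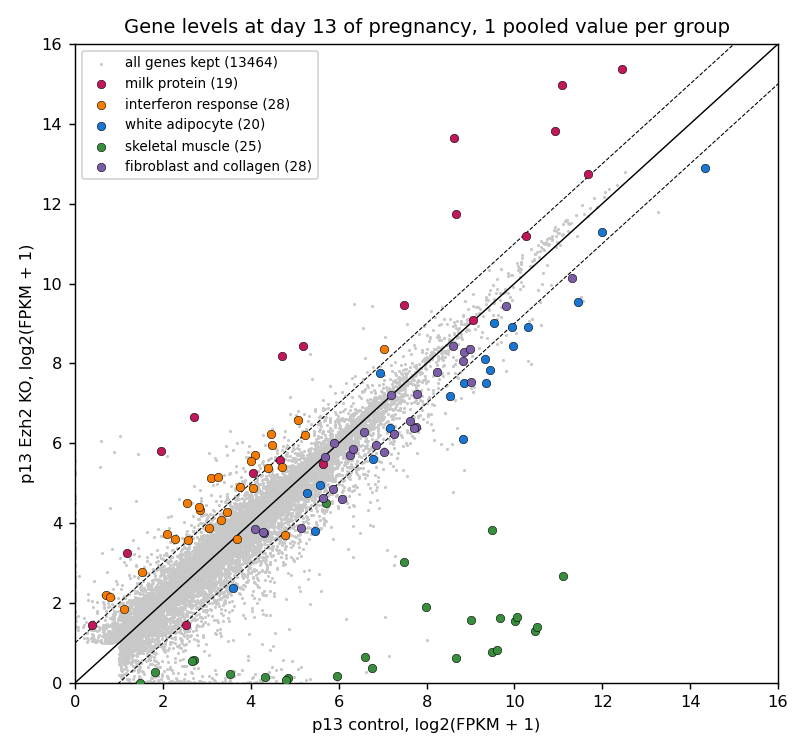
Levels of the 13464 genes kept, as log2(FPKM + 1), in p13 Ezh2 KO (vertical axis) against p13 control (horizontal axis), with 1 pooled value per group. The solid line marks equal levels and the dashed lines a difference of 1 log2 unit. Most milk protein and interferon response genes lie above the upper line, all 25 skeletal muscle genes lie below the lower line, and white adipocyte and collagen genes crowd under the diagonal.

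Several facts of the libraries touch these values. Ezh2 itself stood at 13.7 FPKM in the group labelled Ezh2 KO and 12.9 in control. Being a sum over all exons and all cells of the tissue, and with the deleted exons not stated in the sources used, this value does not check the label. Ezh1 stood at 9.50 FPKM in Ezh2 KO, 6.17 in Ezh1 het Ezh2 KO, 1.06 in Ezh1 KO and 14.7 in control. The summed FPKM was 728736 in Ezh2 KO and 671588 in control, and the 4 highest genes of the Ezh2 KO group (Csn2, Csn1s2a, Csn1s1 and Glycam1) made up 14.0% of its sum, against 1.499% of the control sum. Skeletal muscle genes were concentrated in the p13 control and Ezh1 KO groups. Of the 940 lower genes, 121 stood at least 1 log2 unit higher in Ezh1 KO than in Ezh1 het Ezh2 KO, as 19 of the 25 muscle genes did. Without such genes 345 genes were higher and 819 lower, a check added after the values were seen. Markers of the labelled tissue were present in both groups. The luminal keratin gene Krt8 had 400 FPKM in Ezh2 KO and 268 in control. The basal keratin gene Krt5 had 83.1 FPKM in Ezh2 KO and 78.2 in control.

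The promoters of milk protein genes are shown because STAT5 binds sites of the form TTCNNNGAA, called GAS motifs. The motif is its own reverse complement, so both strands were read at once. RefSeq promoter windows on GRCm38.p6 run from 250 bases before to 50 bases after the annotated start, and 14 of the 19 milk protein genes kept had one. The motif occurred in 5 of these 14 genes (35.7%), and in 2582 of all 27025 genes with a window (9.55%). It also occurred in 4 of the 20 interferon response genes with a window (20.0%), so it was not particular to the milk protein list. A match describes the letters only and is not evidence of a bound site. The Csn2 match began 93 bases before the start, that of Csn1s1 100 bases before and that of Glycam1 145 bases before. In Csn1s2a it began 21 bases after the start, and in Pigr 40 bases after. The 250 bases before the start follow for Csn2 (chr5:87699426-87699675, minus strand), Csn1s1 (chr5:87665958-87666207, plus strand) and Glycam1 (chr15:103565082-103565331, minus strand), 5′ to 3′, with the motif in capitals.
Csn2: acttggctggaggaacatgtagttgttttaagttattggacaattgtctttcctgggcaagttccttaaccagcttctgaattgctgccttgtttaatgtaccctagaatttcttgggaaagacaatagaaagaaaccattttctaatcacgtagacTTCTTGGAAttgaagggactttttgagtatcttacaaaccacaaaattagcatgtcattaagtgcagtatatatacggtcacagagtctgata
Csn1s1: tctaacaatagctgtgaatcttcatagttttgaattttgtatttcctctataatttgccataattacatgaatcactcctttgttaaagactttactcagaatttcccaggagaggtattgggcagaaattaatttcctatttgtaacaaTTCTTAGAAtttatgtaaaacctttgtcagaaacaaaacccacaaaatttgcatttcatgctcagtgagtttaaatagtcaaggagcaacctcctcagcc
Glycam1: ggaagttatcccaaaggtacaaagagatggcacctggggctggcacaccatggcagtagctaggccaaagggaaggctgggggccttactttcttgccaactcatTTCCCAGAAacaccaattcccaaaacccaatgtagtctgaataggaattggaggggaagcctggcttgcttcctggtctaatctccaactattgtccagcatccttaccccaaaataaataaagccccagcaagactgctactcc

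Of 19 milk protein genes kept, 14 were higher in Ezh2 KO and 1 was lower, with a median log2 difference of 2.08 against 0.02 over all genes. On the luminal scale 11 were higher and 1 lower, with a median of 1.70. The caseins, the phosphoproteins that form milk micelles, shared a direction. Csn2 (beta-casein), whose promoter is shown above, had 42713 FPKM in Ezh2 KO, 19742 in Ezh1 het Ezh2 KO, 8447 in Ezh1 KO and 5570 in control. Csn1s1 (alpha-casein) had 14527 FPKM in Ezh2 KO, 6978 in Ezh1 het Ezh2 KO, 3806 in Ezh1 KO and 1946 in control. The order of the groups was the same for both genes, with Ezh2 KO highest and control lowest. Csn3, the kappa-casein that holds micelles in suspension, had 3437 FPKM in Ezh2 KO, 1367 in Ezh1 het Ezh2 KO, 597 in Ezh1 KO and 405 in control, and was 8.50-fold higher in Ezh2 KO than in control. Csn1s2b, a minor casein, was low but in the same order, at 8.49 FPKM in Ezh2 KO, 6.17 in Ezh1 het Ezh2 KO, 1.74 in Ezh1 KO and 1.25 in control. Ezh2 KO was thus the highest p13 group and control the lowest for each of these caseins.

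The whey and secreted proteins varied more among themselves. Glycam1, a mucin-like milk glycoprotein, had the largest difference of the list (log2 5.02). Spp1, the secreted phosphoprotein osteopontin, had 346 FPKM in Ezh2 KO, 191 in Ezh1 het Ezh2 KO, 42.2 in Ezh1 KO and 35.5 in control, a 9.74-fold higher value in Ezh2 KO than in control. Muc15, a membrane mucin known from bovine milk fat globules, had 699 FPKM in Ezh2 KO, 299 in Ezh1 het Ezh2 KO, 237 in Ezh1 KO and 178 in control. Ltf, the iron-binding lactoferrin, and Expi, a protease inhibitor also known as WDNM1, were nearer the threshold. Ltf had 37.3 FPKM in Ezh2 KO and 15.5 in control, and Expi had 6877 in Ezh2 KO and 3278 in control. Mfge8, a fat globule protein that binds dying cells, hardly differed, at 542 FPKM in Ezh2 KO and 535 in control. Saa3, a serum amyloid of the acute phase response, was the only lower member, at 1.71 FPKM in Ezh2 KO and 4.72 in control. Ezh2 KO was the highest of the 4 p13 groups for 16 of the 19 genes, whereas it was highest for 36.0% of all genes kept.

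Set against day 18 (p18), the caseins and the late whey genes were still low. The p13 Ezh2 KO value of Csn2 was 29.3% of the p18 control value of 145905 FPKM, and the p13 control value was 3.82% of it. For the early genes Csn1s1 and Csn3 the p13 Ezh2 KO values were 30.5% and 27.3% of the p18 control, against 4.08% and 3.21% for the p13 control. The late gene Wap, which encodes whey acidic protein, had reached 0.756% of its p18 control level in p13 Ezh2 KO and 0.065% in p13 control. Lalba, which encodes alpha-lactalbumin, had reached 3.57% in p13 Ezh2 KO and 0.199% in p13 control. The caseins had therefore come further toward their p18 level than the late whey genes in both p13 groups. Other members were nearer to that level. Muc15 had reached 80.8% of it in p13 Ezh2 KO and 20.5% in p13 control, and Expi 99.3% in p13 Ezh2 KO and 47.3% in p13 control. Fcgbp, a mucin-like protein, stood above its p18 control level in both p13 groups.

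**Figure D2:**
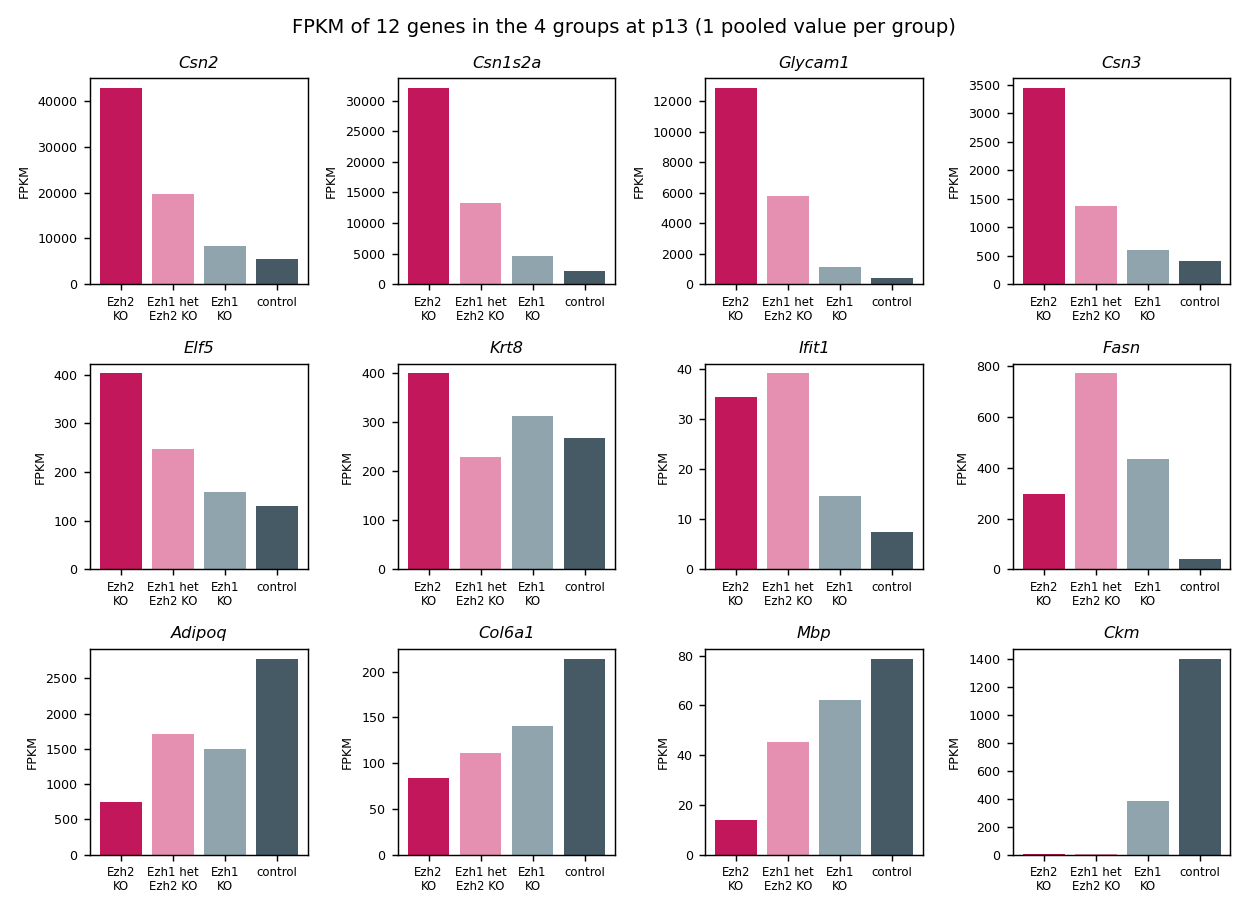
FPKM of 12 genes in the 4 p13 groups, with 1 bar for each group's pooled value and an axis of its own for each gene. Csn2, Csn1s2a, Glycam1, Csn3 and Elf5 descend in steps with Ezh2 KO highest and control lowest, Krt8 is highest in Ezh2 KO, Ifit1 and Fasn are highest in Ezh1 het Ezh2 KO, and Adipoq, Col6a1, Mbp and Ckm are lowest in Ezh2 KO and highest in control.

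Lipid genes formed separate classes. Of 20 genes of de novo fatty acid synthesis, 8 were higher in Ezh2 KO and 1 was lower (median 0.66, and 0.15 on the luminal scale). Olah, the thioesterase that ends chains at the medium length typical of milk, followed the order of the caseins, with 78.4 FPKM in Ezh2 KO, 39.2 in Ezh1 het Ezh2 KO, 21.4 in Ezh1 KO and 10.5 in control. Acly, which makes cytosolic acetyl-CoA, did not, with 171 FPKM in Ezh2 KO, 397 in Ezh1 het Ezh2 KO, 222 in Ezh1 KO and 55.0 in control. Acaca (acetyl-CoA carboxylase) had 77.5 FPKM in Ezh2 KO, 157 in Ezh1 het Ezh2 KO, 93.6 in Ezh1 KO and 26.5 in control. Control was the lowest group for 15 of the 20 synthesis genes (75%), against 29.3% of all genes kept. Ezh2 KO was the highest for 4 (20%), below its share of 36.0% over all genes kept. The desaturase gene Fads3 was the lower member, at 30.5 FPKM in Ezh2 KO and 101 in control.

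Genes of fatty acid uptake and triglyceride assembly went the other way for the most part, with 2 of 20 higher and 6 lower (median -0.40). Fabp3, the fatty acid carrier of secretory epithelium and muscle, was a higher one, with 719 FPKM in Ezh2 KO, 384 in Ezh1 het Ezh2 KO, 59.9 in Ezh1 KO and 80.3 in control. Acsl4, an acyl-CoA synthetase, was the other, with 44.3 FPKM in Ezh2 KO and 18.2 in control. The lower ones were genes that adipocytes express strongly. They included Cd36, a fatty acid translocase, with 533 FPKM in Ezh2 KO and 1281 in control, and Aqp7, a glycerol channel, with 13.0 in Ezh2 KO and 42.7 in control. Among 10 genes of the milk fat globule and lipid droplet 2 were higher and 2 lower, with a median of 0.11 that turned to -0.39 on the luminal scale. Btn1a1, the butyrophilin of the globule membrane, had 143 FPKM in Ezh2 KO and 28.6 in control, whereas the adipocyte droplet gene Plin4 had 57.1 in Ezh2 KO and 350 in control. None of 20 cholesterol synthesis genes passed 1 log2 unit in either direction (median 0.04, and -0.44 on the luminal scale).

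Of 13 genes for ion, vitamin and metal transport by alveolar cells, 5 were higher and none was lower (median 0.79, and 0.43 on the luminal scale). Slc34a2, a phosphate carrier, had 8.42 FPKM in Ezh2 KO and 1.51 in control. Slc28a3, a nucleoside carrier, had 25.1 FPKM in Ezh2 KO and 7.57 in control, and the potassium channel gene Kcnk1 had 52.7 in Ezh2 KO and 23.04 in control. Each of these was in the order of the caseins across the 4 groups. Glucose uptake and lactose synthesis had 1 of 14 genes higher and 1 lower, with a median of 0.10 that turned to -0.39 on the luminal scale. B4galt1, the catalytic subunit of lactose synthase, had 94.4 FPKM in Ezh2 KO and 50.2 in control, short of the threshold. Of 18 amino acid transporters 1 was higher and 4 were lower, with a median of -0.01 that turned positive when both groups had a common upper quartile. None of 29 genes of endoplasmic reticulum translocation, folding and stress passed the threshold (median -0.09), while on the luminal scale 2 were lower and the median was -0.59. The chaperone gene Hspa5 had 291 FPKM in Ezh2 KO and 304 in control.

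Luminal identity genes stood moderately higher in Ezh2 KO. Of 17 luminal epithelial markers, 14 had a positive difference (median 0.69), as did 7004 of all 13464 genes kept. Only 1 of the 17 passed the threshold, against 2.81% of all genes kept. The share of these markers in the summed FPKM was 0.402% in Ezh2 KO, 0.264% in Ezh1 het Ezh2 KO, 0.322% in Ezh1 KO and 0.272% in control. Of 21 luminal and alveolar transcription factors, 3 were higher and 1 was lower (median 0.70, and 0.22 on the luminal scale). Elf5, the factor that directs alveolar fate downstream of prolactin, had 402 FPKM in Ezh2 KO, 248 in Ezh1 het Ezh2 KO, 158 in Ezh1 KO and 131 in control. Its difference of 1.61 was the largest of the group, and the other higher factors were lesser. Id2, an inhibitor of DNA binding needed for alveolar growth in mice, had 176 FPKM in Ezh2 KO and 80.8 in control, and the ETS factor gene Ehf had 196 in Ezh2 KO and 92.8 in control. Esr1, the estrogen receptor, was the lower member, with 5.95 FPKM in Ezh2 KO, 9.09 in Ezh1 het Ezh2 KO, 8.96 in Ezh1 KO and 18.1 in control. Esr1 is also expressed outside the epithelium, and in which cells it was lower cannot be told apart here.

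The prolactin pathway itself differed less than its milk targets. Of 17 genes for the receptor, STAT5 and known targets, only Elf5 and Id2 were higher and none was lower, with a median of 0.20 that turned to -0.27 on the luminal scale. Prlr, the receptor, had 8.71 FPKM in Ezh2 KO and 5.78 in control. Stat5a had 57.5 FPKM in Ezh2 KO and 32.1 in control, and Stat5b had 26.6 in Ezh2 KO and 26.2 in control. The direct feedback targets Cish and Socs2 lay near control, with Cish at 43.9 FPKM in Ezh2 KO and 32.4 in control, and Socs2 at 39.3 in Ezh2 KO and 40.6 in control. Tnfsf11, the RANK ligand that relays progesterone and prolactin signals, had 21.2 FPKM in Ezh2 KO and 17.4 in control.

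Tight junction genes, which seal alveoli before secretion, had 3 of 16 members higher and 1 lower (median 0.51, and 0.01 on the luminal scale). Cldn8 had 51.6 FPKM in Ezh2 KO and 16.02 in control. Cgn, which encodes the junction plaque protein cingulin, had 17.5 in Ezh2 KO and 6.24 in control, and Tjp3 had 61.4 in Ezh2 KO and 27.3 in control. Cldn15 was the lower member, at 7.39 FPKM in Ezh2 KO and 22.3 in control. None of 17 basal and myoepithelial markers passed the threshold, and their median of 0.28 turned to -0.23 on the luminal scale. Myh11, smooth muscle myosin, had 73.2 FPKM in Ezh2 KO and 42.4 in control, and Krt14 had 63.9 in Ezh2 KO and 76.5 in control.

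Genes of DNA replication and mitosis were shifted slightly and together. None of 32 passed the threshold and 31 had a positive difference, as did 7004 of all 13464 genes kept. Ezh2 KO was the highest of the 4 p13 groups for 30 (93.8%), against 36.0% of all genes kept. The median of 0.32 nevertheless turned to -0.16 on the luminal scale. Mki67, a marker of cycling cells, had 27.8 FPKM in Ezh2 KO, 19.5 in Ezh1 het Ezh2 KO, 23.3 in Ezh1 KO and 17.1 in control. The mitotic kinase gene Aurka had 20.1 FPKM in Ezh2 KO, 12.4 in Ezh1 het Ezh2 KO, 13.6 in Ezh1 KO and 13.0 in control. The replication licensing gene Mcm4 had 21.4 FPKM in Ezh2 KO and 20.9 in control. The 34 cytosolic ribosomal protein genes behaved likewise, with none past the threshold and a median of 0.27 that turned to -0.23 on the luminal scale. Direction in both lists thus rests on the scaling.

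No Polycomb subunit gene passed the threshold. Of 13 PRC2 subunits and H3K27 demethylases none passed the threshold, and their median of 0.10 turned to -0.02 with the common sum and to -0.39 on the luminal scale, where 1 was lower. Suz12 had 26.6 FPKM in Ezh2 KO and 20.7 in control, and the accessory subunit gene Jarid2 had 19.1 in Ezh2 KO and 10.9 in control, the largest difference of the list. None of 19 PRC1 subunits passed it either, with a median of 0.14 that turned to -0.34 on the luminal scale. Bmi1, a PRC1 subunit, had 33.6 FPKM in Ezh2 KO, 33.5 in Ezh1 het Ezh2 KO, 15.6 in Ezh1 KO and 19.3 in control. It was the PRC1 gene with the largest difference, and both Ezh2 KO groups stood above Ezh1 KO and control. The 5 cyclin-dependent kinase inhibitors kept had none past the threshold (median -0.27).

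Hox genes are classic PRC2 targets, and 17 of 39 stayed below 1 FPKM in both groups. Over all genes kept 2.81% were higher and 6.98% lower, and of the 22 Hox genes kept none was higher and 2 were lower (median -0.17). These were Hoxc8, at 7.66 FPKM in Ezh2 KO and 18.8 in control, and Hoxc10, at 5.63 in Ezh2 KO and 13.4 in control. Hoxc8 had 15.2 FPKM in Ezh1 het Ezh2 KO and 15.9 in Ezh1 KO, so Ezh2 KO was the lowest of the 4 groups. Among 47 other developmental transcription factors 30 stayed below 1 FPKM, 3 were higher and 3 lower, with a median of -0.19 that was 1.06 over the few members at 5 FPKM or more. The higher ones were Barx2, with 88.0 FPKM in Ezh2 KO and 40.3 in control, Irx3, with 78.9 in Ezh2 KO and 37.2 in control, and Irx5, with 41.7 in Ezh2 KO and 19.5 in control, and none of these 3 passed the threshold with the common sum. The lower ones included En1 and Tbx15, with Tbx15 at 2.25 FPKM in Ezh2 KO and 9.26 in control.

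Imprinted growth genes, expressed from 1 parental allele, stood lower as a list, with 6 of 15 lower and none higher (median -0.87, and -1.34 on the luminal scale). Mest had the largest difference, with 26.5 FPKM in Ezh2 KO, 56.9 in Ezh1 het Ezh2 KO, 63.6 in Ezh1 KO and 387 in control, a 14.6-fold lower value in Ezh2 KO than in control. Its control value stood apart from all 3 other groups. Nnat (neuronatin) had 273 FPKM in Ezh2 KO, 279 in Ezh1 het Ezh2 KO, 477 in Ezh1 KO and 850 in control. The lower members also took in the zinc finger gene Plagl1, with 5.96 FPKM in Ezh2 KO and 15.2 in control. Igf2 hardly differed, at 44.8 FPKM in Ezh2 KO and 41.5 in control. Mest and Nnat are expressed in fat, and white adipocyte markers moved the same way, as given below; their part in this result was not tested.

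**Figure D3:**
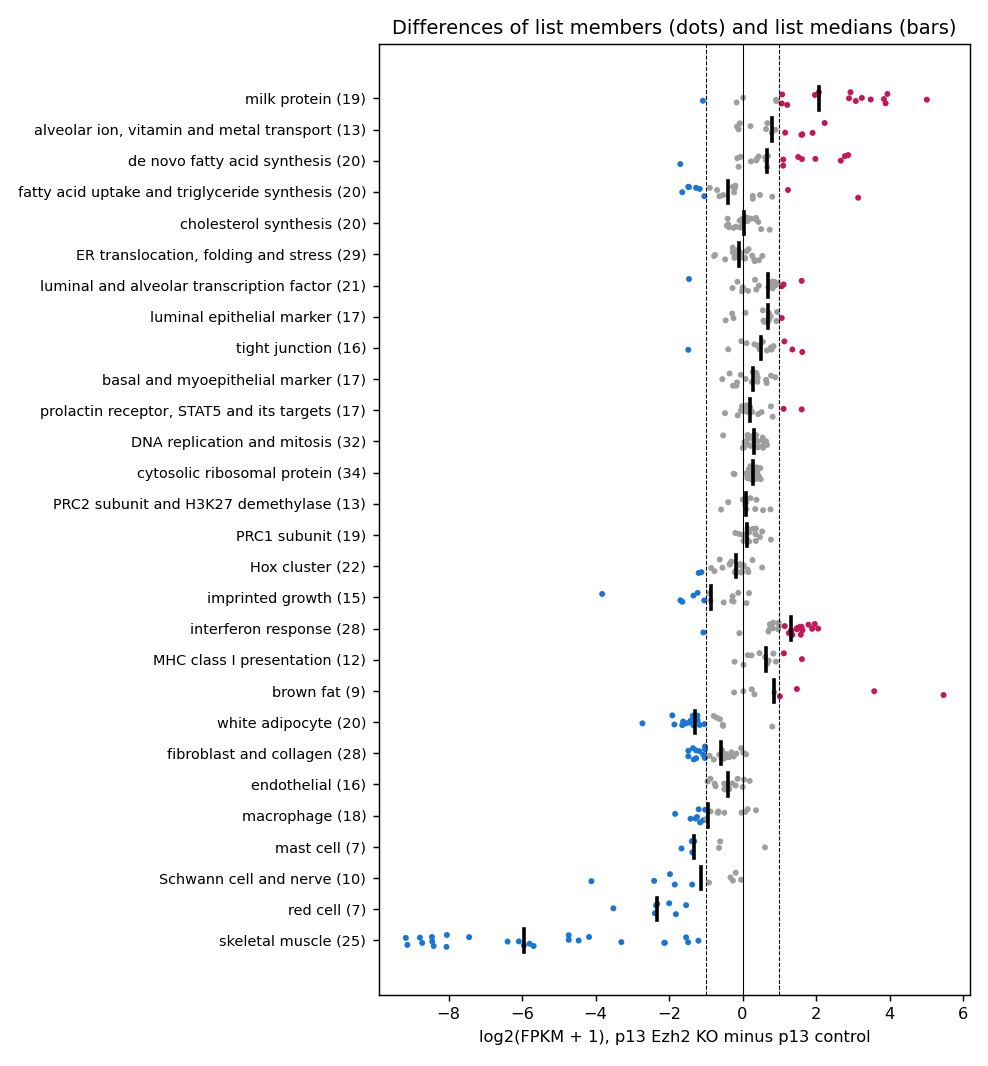
Differences of list members (dots) and list medians (bars) between p13 Ezh2 KO and p13 control, in log2(FPKM + 1), with the number of genes kept in brackets. Dashed lines mark 1 log2 unit in either direction. Milk protein, interferon response and brown fat members extend to the right, and white adipocyte, mast cell, Schwann cell, red cell and skeletal muscle medians lie left of -1.

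Interferon response genes formed the other large higher list. Their promoters are shown because interferon-activated complexes that hold STAT2 and IRF9 bind elements of the form GAAANNGAAA, read here on both strands. The motif occurred in 12 of the 20 interferon genes with a window (60.0%) and in 1079 of the 27025 genes with one (3.99%). It also occurred in 2 of the 14 milk protein genes with a window (14.3%). Both promoters were picked after the values were seen. Isg15 (chr4:156200819-156201068, minus strand) held 3 overlapping matches, which began 78, 72 and 66 bases before the start. Ifit1 (chr19:34640639-34640888, plus strand) held 2 matches on the opposite strand, 104 and 85 bases before it. The 250 bases before the start follow, with the motif in capitals.
Isg15: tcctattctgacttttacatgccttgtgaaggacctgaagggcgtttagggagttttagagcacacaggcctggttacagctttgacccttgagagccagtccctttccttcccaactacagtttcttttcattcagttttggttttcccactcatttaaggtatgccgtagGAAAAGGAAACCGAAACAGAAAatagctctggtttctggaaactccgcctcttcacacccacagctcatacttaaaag
Ifit1: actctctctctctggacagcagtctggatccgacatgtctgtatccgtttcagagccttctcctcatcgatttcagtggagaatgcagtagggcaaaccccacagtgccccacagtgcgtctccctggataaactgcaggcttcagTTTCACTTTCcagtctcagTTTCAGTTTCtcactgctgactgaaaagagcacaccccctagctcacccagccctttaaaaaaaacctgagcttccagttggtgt

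Of 28 interferon response genes kept, 17 were higher in Ezh2 KO and 1 was lower (median 1.33). On the luminal scale 12 were higher and 1 lower, with a median of 0.88, and with a pseudocount of 5 the median was 0.89, both short of the threshold. Isg15, a ubiquitin-like modifier, had 95.3 FPKM in Ezh2 KO, 123 in Ezh1 het Ezh2 KO, 58.6 in Ezh1 KO and 32.9 in control. Irf7, a transcription factor that amplifies the response, had 74.8 FPKM in Ezh2 KO, 94.9 in Ezh1 het Ezh2 KO, 38.9 in Ezh1 KO and 20.8 in control. Oasl1, of the oligoadenylate synthetase family, had 12.2 FPKM in Ezh2 KO, 14.0 in Ezh1 het Ezh2 KO, 6.82 in Ezh1 KO and 3.27 in control. In all of these Ezh1 het Ezh2 KO was the highest group and control the lowest. Over the list, control was the lowest of the 4 p13 groups for 25 of 28 genes (89.3%), against 29.3% of all genes kept. Ezh2 KO was the highest for 6 (21.4%), below its share of 36.0% over all genes kept. The signal transducer gene Stat2 had 13.8 FPKM in Ezh2 KO and 7.31 in control, just short of the threshold. Isg20, an exonuclease, was the lower member, with 12.0 FPKM in Ezh2 KO and 26.3 in control.

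Genes of MHC class I presentation, which interferon also induces, had 2 of 12 members higher and none lower (median 0.64, and 0.14 on the luminal scale). Tap1, a peptide transporter, had 56.1 FPKM in Ezh2 KO and 25.2 in control. H2-Q7 had 98.0 FPKM in Ezh2 KO and 31.3 in control, and is uncertain because the H2-Q genes are near copies. B2m, the light chain of class I molecules, had 3850 in Ezh2 KO and 3777 in control. Markers of B and T cells were low in both groups, with 12 of 22 kept, 1 higher and none lower (median 0.45, and 0.06 on the luminal scale). The higher one was Igj, the joining chain of secreted antibodies, with 8.26 FPKM in Ezh2 KO, 32.5 in Ezh1 het Ezh2 KO, 5.23 in Ezh1 KO and 3.09 in control. The T cell gene Cd8b1 had 1.65 FPKM in Ezh2 KO, 8.60 in Ezh1 het Ezh2 KO, 0.967 in Ezh1 KO and 0.543 in control. The T cell receptor complex gene Cd3e had 1.37 FPKM in Ezh2 KO, 5.31 in Ezh1 het Ezh2 KO, 1.05 in Ezh1 KO and 1.03 in control. In Ezh1 het Ezh2 KO, the highest group for Isg15, Irf7 and Oasl1, the B and T cell median over control was 1.82. Macrophage markers were lower, with 8 of 18 lower and none higher (median -0.93). Mrc1, a mannose receptor of tissue macrophages, had 14.1 FPKM in Ezh2 KO and 35.5 in control, and Ccl6, a chemokine, had 28.6 in Ezh2 KO and 105 in control. In Ezh2 KO the interferon genes were higher and the macrophage markers lower, which was not so in the other p13 groups. The interferon and macrophage medians over control were 1.56 and 0.13 in Ezh1 het Ezh2 KO. In Ezh1 KO they were 0.69 and 0.17. Of the 12 B and T cell markers 9 had a positive difference, as did 7004 of all 13464 genes kept. Some of these markers, such as Cd8b1, were kept through Ezh2 KO alone, so the filter fixed their direction. The part of immune cells in the interferon result was not tested.

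The white adipocyte list was lower in Ezh2 KO, with 14 of 20 members lower, none higher and a median of -1.28. Its share of the summed FPKM was 1.94% in Ezh2 KO, 3.85% in Ezh1 het Ezh2 KO, 3.48% in Ezh1 KO and 5.28% in control. Lep, the satiety hormone leptin, had 67.6 FPKM in Ezh2 KO, 127 in Ezh1 het Ezh2 KO, 156 in Ezh1 KO and 452 in control. Ghr, the growth hormone receptor, had 180 FPKM in Ezh2 KO, 319 in Ezh1 het Ezh2 KO, 267 in Ezh1 KO and 652 in control, and Pck1, of glyceroneogenesis, had 227 FPKM in Ezh2 KO, 323 in Ezh1 het Ezh2 KO, 258 in Ezh1 KO and 700 in control. Ezh2 KO was the lowest of the 4 groups for 19 of the 20 genes (95%), against 31.5% of all genes kept. The exception was Gpd1, glycerol phosphate dehydrogenase, with 216 FPKM in Ezh2 KO, 338 in Ezh1 het Ezh2 KO, 214 in Ezh1 KO and 123 in control. Markers of brown fat went the other way, with 4 of 9 higher and none lower (median 0.87, 0.54 on the luminal scale and 0.33 with a pseudocount of 5). Among the 4 was Cidea, which was also counted with the milk fat globule and lipid droplet genes. Cidea had 50.3 FPKM in Ezh2 KO, 18.7 in Ezh1 het Ezh2 KO, 9.75 in Ezh1 KO and 3.28 in control, and 277 in p18 control. Ucp1, the uncoupling protein of brown adipocytes, had 65.5 FPKM in Ezh2 KO, 1.88 in Ezh1 het Ezh2 KO, 0.340 in Ezh1 KO and 0.499 in control, so it was high in that group alone. Cox8b, a respiratory subunit of brown fat and muscle, had 185 FPKM in Ezh2 KO, 116 in Ezh1 het Ezh2 KO, 73.7 in Ezh1 KO and 90.8 in control.

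Connective tissue genes were lower too. Of 28 fibroblast and collagen genes, 11 were lower and none higher (median -0.60, and -1.11 on the luminal scale with 18 lower). A negative difference was found for 26 of the 28, and for 6460 of all 13464 genes kept. The share of the list in the summed FPKM was 0.637% in Ezh2 KO, 0.959% in Ezh1 het Ezh2 KO, 1.11% in Ezh1 KO and 1.20% in control. The genes of collagen VI, a beaded filament around fat and muscle cells, stood out, with Col6a1 at 83.7 FPKM in Ezh2 KO, 111 in Ezh1 het Ezh2 KO, 141 in Ezh1 KO and 214 in control. Dpt, the matrix protein dermatopontin, had 186 FPKM in Ezh2 KO and 518 in control, and the matrix gene Sparc had 1126 in Ezh2 KO and 2534 in control. The fibrillar collagen gene Col3a1 differed less, at 691 FPKM in Ezh2 KO and 891 in control. None of 16 endothelial markers passed the threshold (median -0.40, and -0.90 on the luminal scale), as with Pecam1, an endothelial adhesion molecule, at 57.4 FPKM in Ezh2 KO and 76.3 in control.

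Schwann cell and mast cell genes shared this direction. Of 10 Schwann cell and nerve genes, 5 were lower and all 10 had a negative difference (median -1.14), as did 6460 of all 13464 genes kept. Mag, with 0.193 FPKM in Ezh2 KO and 1.24 in control, was kept through control alone. Mbp, myelin basic protein, had 14.1 FPKM in Ezh2 KO, 45.1 in Ezh1 het Ezh2 KO, 62.1 in Ezh1 KO and 78.9 in control. Ezh2 KO was the lowest group, below each of the other 3, and control the highest. The median of the Schwann cell list came to -0.44 with a pseudocount of 5, short of the threshold. Of 7 mast cell genes kept, 4 were lower (median -1.31, and -0.64 over all 9 genes without the minimum of 1 FPKM), among them the tryptase gene Tpsb2, with 12.2 FPKM in Ezh2 KO and 40.6 in control. Kit, a receptor that luminal progenitors also carry, was the member with a positive difference, at 67.8 in Ezh2 KO and 44.0 in control.

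Skeletal muscle and red cell genes had the most extreme differences. All 25 muscle genes kept were lower (median -5.95), and their share of the summed FPKM was 0.009% in Ezh2 KO, 0.013% in Ezh1 het Ezh2 KO, 0.466% in Ezh1 KO and 1.78% in control. Some, such as Atp2a1 (0.762 FPKM in Ezh2 KO and 772 in control), were kept through control alone, so the filter fixed their direction. Pvalb, a calcium buffer of fast fibres, had 1.97 FPKM in Ezh2 KO, 1.63 in Ezh1 het Ezh2 KO, 189 in Ezh1 KO and 514 in control. Muscle transcripts were thus near the floor in both groups with the Ezh2 KO. They were also low in the controls of other stages, with Pvalb at 4.34 FPKM in the virgin control without prolactin and 2.24 in the p18 control. All 7 red cell genes kept were lower (median -2.32), including Alas2, the erythroid heme enzyme, with 19.2 FPKM in Ezh2 KO, 39.0 in Ezh1 het Ezh2 KO, 51.9 in Ezh1 KO and 99.99 in control. Among the red cell genes Slc4a1, with 0.484 FPKM in Ezh2 KO and 4.22 in control, was likewise kept through control alone. Globin genes are uncertain because their copies are nearly identical. The part of adhering muscle and blood in the values of other lists was not tested. The count given above left out 218 genes by their level in Ezh1 KO against Ezh1 het Ezh2 KO. These held 19 of the 25 muscle genes, but also 33 genes that were higher in Ezh2 KO.

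**Figure D4:**
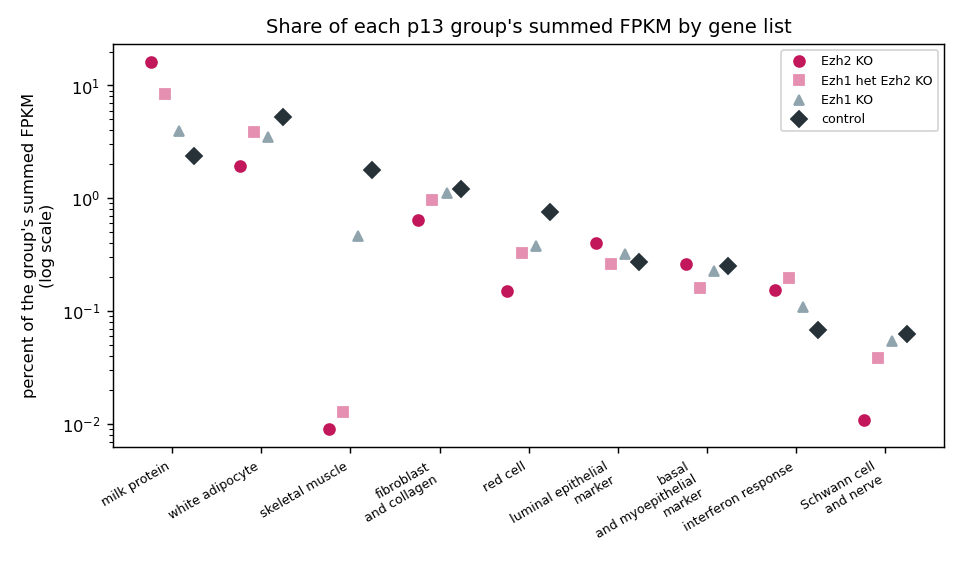
Share of each p13 group's summed FPKM taken by 9 gene lists, in percent on a log axis, with 1 symbol per group. Milk protein genes take 16.04% in Ezh2 KO and 2.36% in control, white adipocyte, fibroblast, red cell and Schwann cell shares are lowest in Ezh2 KO and highest in control, and muscle genes are near absent in both groups with the Ezh2 KO.

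In the lists of Notch, Wnt, EGF and IGF genes, the members past the threshold were lower. So were most genes past it over the whole comparison (378 higher and 940 lower). Of 33 Notch, Wnt and EGF pathway genes 4 were lower and none higher (median -0.20), against 6.98% lower and 2.81% higher over all genes kept. Sfrp5, a Wnt antagonist made by fat, had 6.77 FPKM in Ezh2 KO, 8.06 in Ezh1 het Ezh2 KO, 19.7 in Ezh1 KO and 152 in control. Sfrp4, a related antagonist, had 2.53 FPKM in Ezh2 KO, 12.2 in Ezh1 het Ezh2 KO, 23.4 in Ezh1 KO and 18.1 in control. Control was the highest group for Sfrp5 but not for Sfrp4. Of 12 IGF axis genes 3 were lower and none higher (median -0.44). Igf1 had 21.6 FPKM in Ezh2 KO, 50.9 in Ezh1 het Ezh2 KO, 38.2 in Ezh1 KO and 72.0 in control, and Igfbp6, an IGF binding protein, had 42.2 FPKM in Ezh2 KO, 136 in Ezh1 het Ezh2 KO, 185 in Ezh1 KO and 150 in control. The receptor genes Igf1r and Egfr, picked after their values were seen, lay near control, with Igf1r at 4.24 FPKM in Ezh2 KO and 4.28 in control and Egfr at 12.2 in Ezh2 KO and 14.1 in control.

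Stress, clock and hormone response genes were mixed. Of 12 glucocorticoid-responsive and metallothionein genes 2 were higher and 2 lower (median -0.54). The higher ones were the metal-binding Mt2, with 471 FPKM in Ezh2 KO, 171 in Ezh1 het Ezh2 KO, 126 in Ezh1 KO and 92.5 in control, and Mt1, with 509 FPKM in Ezh2 KO, 280 in Ezh1 het Ezh2 KO, 230 in Ezh1 KO and 186 in control. Both metallothioneins followed the order of the caseins. The glucocorticoid target Tsc22d3 was lower, with 40.8 FPKM in Ezh2 KO and 89.0 in control, as was the clock gene Per1, with 10.2 in Ezh2 KO and 24.1 in control. Of 15 circadian clock genes 3 were lower and none higher (median -0.20), and Dbp, a clock output gene, had 5.68 FPKM in Ezh2 KO and 14.97 in control. Of 19 immediate early genes 1 was higher, Egr1, with 37.8 FPKM in Ezh2 KO and 15.4 in control, and 2 were lower, Klf2 and Klf4 (median -0.17). Of 14 genes of the BCL2 family 1 was higher, the death-promoting Bmf, at 16.1 FPKM in Ezh2 KO and 5.91 in control, with a list median of 0.18 that turned to -0.22 on the luminal scale. Tfrc, the transferrin receptor for iron uptake, had 40.5 FPKM in Ezh2 KO and 13.1 in control, while Actb had 1223 in Ezh2 KO and 1600 in control.

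The remaining lists gave few calls, apart from the neutrophil and acute phase list. Of 10 genes of the ovarian hormone receptors and RANKL axis Esr1 alone was lower and none was higher, with a median of 0.19 that turned to -0.28 on the luminal scale. Of 28 oxidative phosphorylation subunits 1 was lower and none higher, with a median of 0.09 that turned to -0.42 on the luminal scale. The lower gene was Cox6a2, a subunit specific to heart and muscle, with 0.545 FPKM in Ezh2 KO and 94.9 in control. Of 12 neutrophil and acute phase genes 3 were higher and 3 lower (median -0.28, and 0.05 at its highest over the alternatives). Over all genes kept 2.81% were higher and 6.98% lower. The higher ones were Chi3l1, Ltf and Saa1, and the lower ones Orm1, Retnlg and Saa3. Ltf and Saa3 were also counted with the milk protein genes. Saa1 was kept through Ezh2 KO alone and Retnlg through control alone, so the filter fixed their direction. Orm1 had 68.1 FPKM in Ezh2 KO and 149 in control. Chi3l1, a chitinase-like secreted protein, had 42.1 FPKM in Ezh2 KO and 11.7 in control. Of 14 ubiquitously expressed genes Tfrc was higher and none was lower, with a median of -0.04 that turned positive with a common upper quartile. Epidermal and liver genes were mostly below 1 FPKM, with 4 of 10 and 3 of 11 kept, of which 1 epidermal gene was lower.

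Among protein-coding genes outside the lists, Gm5506 and Lao1 had the largest higher differences (log2 4.84 and 4.30). Gm5506 is uncertain as a retrocopy. Lao1, an amino acid oxidase known from mouse milk, had 52.0 FPKM in Ezh2 KO, 21.3 in Ezh1 het Ezh2 KO, 1.87 in Ezh1 KO and 1.68 in control. Chrdl2, a chordin-like antagonist of BMP, had 22.3 FPKM in Ezh2 KO, 18.5 in Ezh1 het Ezh2 KO, 3.84 in Ezh1 KO and 1.62 in control. The gap junction gene Gjb6 had 52.9 FPKM in Ezh2 KO, 35.6 in Ezh1 het Ezh2 KO, 18.5 in Ezh1 KO and 7.30 in control, and its relative Gjb2 had 195 FPKM in Ezh2 KO, 110 in Ezh1 het Ezh2 KO, 68.3 in Ezh1 KO and 40.9 in control. Wfdc3, a whey acidic protein domain gene, had 60.2 FPKM in Ezh2 KO, 36.98 in Ezh1 het Ezh2 KO, 8.11 in Ezh1 KO and 9.86 in control. Each of the genes from Lao1 to Wfdc3 was higher in both groups with the Ezh2 KO than in Ezh1 KO and control. Rgs16, a brake on G protein signals, had 47.1 FPKM in Ezh2 KO and 8.24 in control, and Cxcl10, an interferon-induced chemokine, had 29.4 in Ezh2 KO and 5.54 in control. Apol9a and Apol9b were higher too but are uncertain as near copies. The membrane protease gene Tmprss4 had 8.44 FPKM in Ezh2 KO and 0.537 in control. On the lower side, 13 of the 15 largest were genes known from muscle, such as Pygm, muscle glycogen phosphorylase, with 1.08 FPKM in Ezh2 KO and 258 in control. Outside these was Myoc, an extracellular protein of several tissues, with 0.458 FPKM in Ezh2 KO, 5.27 in Ezh1 het Ezh2 KO, 8.14 in Ezh1 KO and 29.6 in control.

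By gene type, 281 of the 378 higher genes and 868 of the 940 lower genes were protein-coding. Small RNA genes gave 72 higher and 50 lower of 213 kept, and 83 of the 97 genes kept that were listed at 0 in 1 of the groups were of this type. Such genes are poorly captured in poly(A) libraries, and none is read further here.

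The same contrast at other stages came from separate columns, with 3 libraries per group at p18 and 2 per group in virgin glands without prolactin. Of 13001 genes kept in virgin glands, 478 (3.68%) were higher in Ezh2 KO and 130 (1.00%) lower. At p18, 340 (2.71%) of 12534 were higher and 306 (2.44%) lower. The milk protein list was above control at p13 and below it at p18. Its median differences were 0.53 in virgin glands, 2.08 at p13 and -0.99 at p18. In virgin glands 7 of its 15 genes kept were higher in Ezh2 KO and 1 was lower (Expi, -1.34). Csn1s1 and Glycam1 differed by 4.99 and 5.66 in virgin glands, more than at p13 (2.90 and 5.02). Csn2 differed by 3.23 and Lalba by 2.75 in virgin glands, against 2.94 and 3.94 at p13. Csn1s1, Csn2 and Lalba were kept in virgin glands through Ezh2 KO alone, so the filter fixed their direction. Spp1 had 2337 FPKM in p18 Ezh2 KO and 5072 in p18 control, and Csn3 had 6244 in p18 Ezh2 KO and 12584 in p18 control. Interferon response genes had medians of -0.03, 1.33 and -1.03 at the 3 stages, with 15 of 28 lower at p18. Isg15 had 59.9 FPKM in p18 Ezh2 KO and 137 in p18 control. White adipocyte genes were opposite in sign, with medians of -0.24, -1.28 and 1.00, and Lep had 204 FPKM in p18 Ezh2 KO and 21.7 in p18 control. Red cell genes had medians of -0.82, -2.32 and 4.50.

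Gene by gene, 12414 genes were kept at both days of pregnancy. Of the 351 of these that were higher at p13, 47 (13.4%) were higher and 80 (22.8%) lower at p18, where 2.53% of the 12414 were higher and 2.21% lower. Of the 711 lower at p13, 172 (24.2%) were higher and 29 (4.08%) lower at p18. As shares of the p18 lists, the 80 made up 29.2% of the lower genes and the 172 made up 54.8% of the higher genes. Genes past the threshold at p13 were therefore past it at p18 more often in the opposite than in the same direction. Brown fat genes had positive medians at all 3 stages, 1.55, 0.87 and 0.87, and Ucp1 had 210 FPKM in virgin Ezh2 KO and 2.003 in virgin control, and 32.4 in p18 Ezh2 KO and 0.964 in p18 control. B and T cell genes were 3.05 higher in virgin Ezh2 KO at the median. All 22 were past the threshold, against 3.68% of all genes kept in virgin glands. Some, such as Cd8a (10.6 FPKM in virgin Ezh2 KO and 0.430 in virgin control), were kept through Ezh2 KO alone, so the filter fixed their direction.

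**Figure D5:**
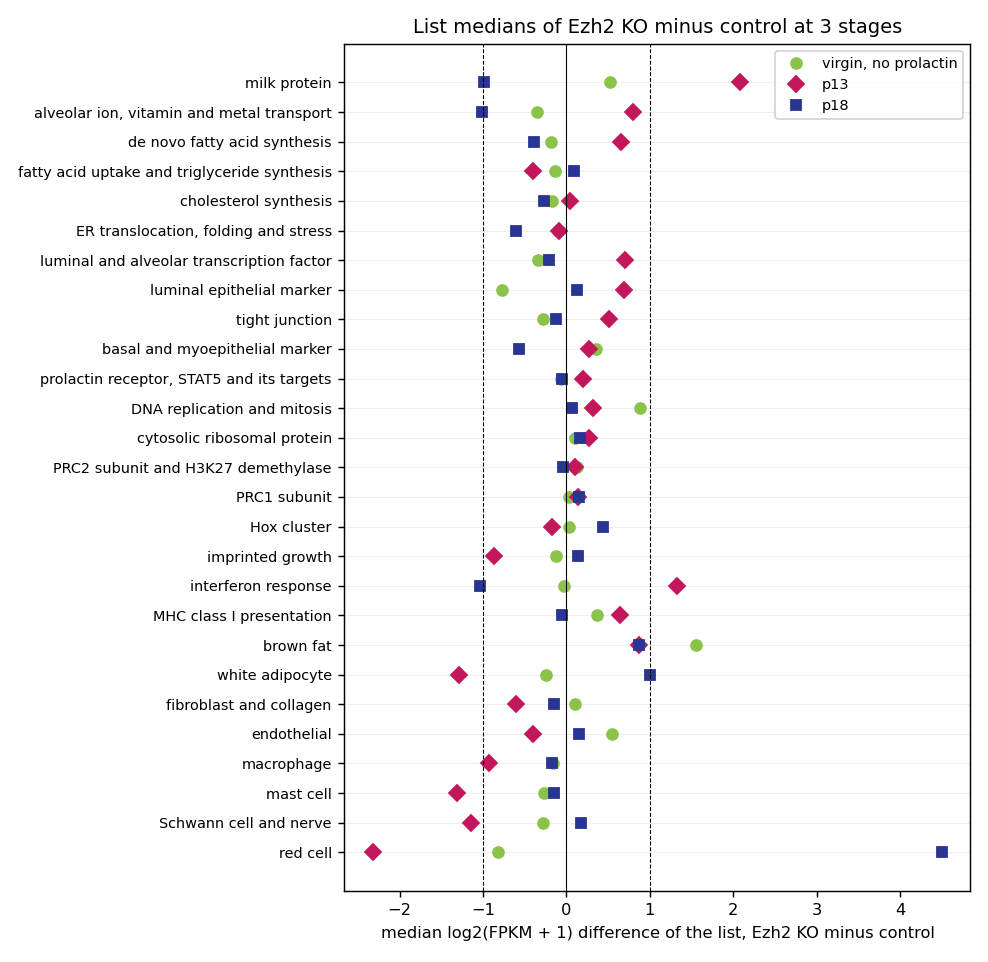
Median log2(FPKM + 1) difference of each list between Ezh2 KO and control in virgin glands without prolactin, at p13 and at p18, over the genes kept at each stage, with dashed lines at 1 log2 unit. Skeletal muscle is left off for scale. Milk protein, alveolar transport and interferon response medians lie right of 0 at p13 and left of it at p18, and those of white adipocyte and red cell genes do the reverse.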

How the data were processed

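Poly(A) RNA of whole mammary tissue was sequenced, and the authors deposited FPKM for 22552 genes in 12 columns, 1 per group, with no columns left without a group. Tools named per the submitters' processing notes are TopHat, Bowtie, BWA, Cufflinks, Cuffdiff, HOMER, CASAVA, FastQC and Trim Galore, with build mm9. Their versions, their roles and how libraries were combined are not given in the sources used here. Depth is unknown: among 1282 genes above 0 and under 0.05 FPKM in both groups, the most common ratio covered 1.95%, so whole reads could not be recovered.

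A limma model was planned and could not be fitted with 1 value per group. Differences of log2(FPKM + 1), with a pseudocount of 1, were counted at 1 log2 unit instead, over genes with at least 1 FPKM in either group. The code was tested on simulated data. The members and the 46 gene lists were chosen with earlier results of these data known. Named genes were Ezh2 and Ezh1, up to 6 members with the largest differences in each list, the 15 largest differences in each direction among protein-coding genes outside the lists with at least 5 FPKM, and the 10 genes highest in Ezh2 KO. Other genes were named after their values were seen, to show members that differed little. Gene types and promoters came from RefSeq tables on GRCm38.p6, in which 20004 genes were found under their symbol and 2339 under a synonym, while 209 had no entry. No coordinates of the mm9 files are given. Alternatives were other pseudocounts, filters, scalings, thresholds and gene sets. Chromatin samples were not analysed here. A few genes covered by the naming rule are not reported here. Python 3.11.15, pandas 2.3.3, NumPy 2.4.6 and matplotlib 3.10.9 were used.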

Additional observations from a re-analysis of the deposited data

How the results depend on the processing

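Of 378 genes higher and 940 lower in Ezh2 KO, a pseudocount of 5 left 191 and 483, scaling to the luminal markers gave 189 and 1987, and a threshold of 2 log2 units left 88 and 220. Counts moved by less than 1.5 times under the other 9 alternatives, which gave 281 to 551 higher and 746 to 1236 lower genes. Of all calls 28.7% were higher, and 8.69% on the luminal scale. Of 46 list medians 7 were past the threshold, 4 of them under every alternative (milk protein, white adipocyte, red cell and skeletal muscle), and of 297 named genes 163 were, 117 of them under every alternative that kept them. None of these changed sign. Medians nearer 0 did, and their values are given beside those lists. No paired analysis was possible because the table holds 1 column per group, and for the same reason no replicate could be left out. Depth is unknown, so no counting error can be given.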
